A study of Mus musculus with 42 samples.

Results

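Microglia from the cortex of germ-free mice given acetate were compared with microglia from the cortex of germ-free mice without it. The comparison rests on 8 of the 42 libraries in the series, taken by their labels. They are 4 wild-type cortex libraries from germ-free mice on acetate and 4 from untreated germ-free mice. The choice of this comparison was made with earlier results of these data known. The series sequenced RNA from sorted microglia of whole brain, cortex and hippocampus in 11 groups that differ in microbiota, acetate and genotype. Its title names acetate made by the microbiota and the metabolic fitness of the innate immune cells of the brain.

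The mice of all 3 cortex groups were wild-type C57BL/6 animals aged 16 weeks, and each library carries a label of its own, a replicate number in the group with microbiota and an animal number in the germ-free groups. Untreated germ-free mice (GF, n = 4) are GF528, GF529, GF530 and GF532. Germ-free mice that received acetate in the drinking water (n = 4) are GFA518, GFA523, GFA524 and GFA525. The labels give 8 weeks of acetate for a group of wild-type and 5xFAD germ-free mice and 4 weeks for another group of germ-free mice, without saying which libraries belong to it. Specific-pathogen-free mice (SPF1 to SPF4, n = 4), which carry a microbiota, are used only for reference values. In each list of values below the libraries stand in the order just given. Microglia were taken by density gradient and sorted as CD11b+ CD45lo cells.

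Acetate is the most abundant short-chain fatty acid made when gut bacteria ferment fibre, and germ-free mice lack this source. It can be turned into acetyl-CoA, which enters the TCA cycle and serves as the donor for histone acetylation. Microglia are the resident macrophages of the brain, kept in their homeostatic state by signals that include TGF-beta. They express the glucocorticoid receptor Nr3c1, a transcription factor that on binding corticosterone turns on genes such as Fkbp5, Tsc22d3, Per1 and Zbtb16.

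Total counts were 15.79 to 20.97 M reads in GF, 18.83 to 22.91 M in acetate and 16.03 to 23.86 M in SPF libraries. Mitochondrial genes took 0.147% to 0.296% of the counts and ribosomal protein genes 0.303% to 0.545% over the 12 libraries. The 10 microglia markers summed to 46841 to 51190 CPM (counts scaled to the size of the library) in GF and to 55010 to 59665 CPM in acetate libraries, and the label held. Markers of border macrophages summed to at most 13.5 CPM and those of monocytes to at most 13.02 CPM, with Lyve1 and Ly6c2 at 0 in all 8 libraries. T and NK cell markers stayed at or under 0.741 CPM, with Cd3e, Cd3g and Trac at 0. Neutrophil markers reached 16.8 CPM in GFA524 and at most 0.770 CPM in the GF libraries, with Ltf, Retnlg, Mmp8 and Mmp9 at 0. The B cell list summed to 493 to 609 CPM in GF and 562 to 787 CPM in acetate libraries, nearly all from Ighm and Cd79b, while Pax5 was at 0. GF529 and GFA518 stood apart from the rest of their groups, and the calls named below that ended without both of them are given with that value. On the first principal component of the 8 libraries (21.3% of the variance of 1000 genes) GF529 scored -41.5 and the other 7 scored -10.6 to 19.9. On the second (16.4%) GFA518 scored -30.1 and GF530 31.1, with the rest between. GF530 thus lay about as far out there as GFA518, but it was not in the pair left out together.

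Of 15113 genes tested, 68 were higher with acetate (0.45%) and 79 were lower (0.523%) by edgeR's quasi-likelihood test at a Benjamini-Hochberg adjusted p under 0.05. Such genes are said here to have risen or fallen, or to be called. The rises were small, with a median fold of 1.52 and 8 of 68 over 2-fold. The falls were larger, with a median fold of 2.04 and 40 of 79 over 2-fold. The 4 acetate libraries lay above all 4 GF libraries in 67 of the 68 risen genes, the exception being Nrp1, against 4.84% of all genes tested. They lay below all 4 in 78 of the 79 fallen genes, the exception being Gpr65, against 3.75%. Such separation follows largely from calling these genes on the same libraries and is no further evidence. These shares over all genes tested, like the 0.45% and 0.523% called, are the background for the counts of list members below. The median log2 difference of acetate minus GF over all genes was -0.01. These are bulk libraries, in which fewer cells of a type and less RNA per cell cannot be told apart.

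Genes that respond to glucocorticoids had the lowest median of the 26 gene lists examined. These lists were chosen with earlier results of these data known, so the rank is a description only. Of 25 tested members of a list of glucocorticoid-responsive genes, 5 fell (Fkbp5, Zbtb16, Pik3ip1, Hif3a and Klf4), 1 rose (Gadd45g) and 19 did not pass. Their median log2 difference was -0.52, against -0.01 over all genes. Fkbp5 encodes an FK506-binding co-chaperone of the glucocorticoid receptor that dampens its signal. It measured 876, 971, 784 and 577 CPM without acetate and 272, 132, 107 and 105 CPM with it. All acetate libraries lay below all GF libraries, and GFA518 was the highest of the treated ones. The fitted log2 difference was -2.38 ± 0.44 (SE), adjusted p = 0.0342, a 5.21-fold lower level. Zbtb16, which encodes the zinc finger repressor PLZF, measured 17.1, 41.4, 15.1 and 8.06 CPM without acetate and 1.56, 0.0937, 0.0481 and 0 CPM with it. It was at or under 0.0937 CPM in every treated library apart from GFA518, and GF529 held the most. Its log2 difference was -5.51 ± 0.93 (SE), adjusted p = 0.0139, and this size rests on very few counts in the treated libraries. Pik3ip1, a membrane inhibitor of PI3K, measured 53.8, 101, 32.5 and 38.2 CPM without acetate and 15.4, 13.7, 12.4 and 10.6 CPM with it. GF529 held the most and the treated libraries lay close together (-2.11 ± 0.28 (SE), adjusted p = 0.00172, 4.32-fold lower).

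Hif3a, a member of the hypoxia-inducible factor family that can restrain its relatives, measured 12.2, 18.4, 6.89 and 7.85 CPM without acetate and 1.07, 0.562, 0.817 and 0.381 CPM with it (-3.98 ± 0.64 (SE), adjusted p = 0.00679). Klf4, a zinc finger transcription factor of the immediate-early class, measured 4.32, 19.04, 4.84 and 5.29 CPM without acetate and 2.63, 1.03, 0.721 and 0.545 CPM with it, with GF529 far above the other 3 GF libraries (-2.75 ± 0.55 (SE), adjusted p = 0.0213). The groups did not overlap in either gene. Gadd45g, a stress-inducible gene that takes part in growth arrest, moved the other way and measured 13.4, 14.2, 21.2 and 23.6 CPM without acetate and 28.5, 42.4, 43.5 and 31.7 CPM with it (1.01 ± 0.21 (SE), adjusted p = 0.0278). Its lowest treated library was GFA518 and its highest GF library was GF532.

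Other well-known targets of the receptor did not pass the test, and in several of them GFA518 sat at or near the GF level. Tsc22d3, which encodes the anti-inflammatory leucine zipper protein GILZ, measured 366, 647, 422 and 355 CPM without acetate and 474, 83.3, 106 and 62.3 CPM with it (-1.3 ± 0.63 (SE), adjusted p = 0.495). GFA518 fell inside the GF range and the other 3 treated libraries lay far below it. Per1, a clock gene with direct glucocorticoid input, measured 63.00, 96.4, 54.7 and 52.4 CPM without acetate and 41.01, 12.1, 12.9 and 9.92 CPM with it (-1.81 ± 0.43 (SE), adjusted p = 0.0709). Ddit4, an inhibitor of mTORC1, measured 21.99, 73.8, 19.2 and 14.5 CPM without acetate and 19.8, 0.234, 1.01 and 0.545 CPM with it (-2.57 ± 1.2 (SE), adjusted p = 0.468). In Ddit4 the treated library GFA518 again lay within the GF range while the others were near 0. The kinase gene Sgk1, another receptor target, overlapped between the groups at 661 to 785 CPM in GF and 676 to 946 CPM in acetate libraries (0.19 ± 0.12 (SE), adjusted p = 0.616). The receptor gene Nr3c1 had a log2 difference of 0.28 ± 0.12 (SE), adjusted p = 0.361.

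Without GF529 and GFA518, a fit that called 35 genes higher and 56 lower in all, 9 members fell and none of the list rose. Those 9 were Fkbp5, Zbtb16, Tsc22d3, Per1, Ddit4, Pik3ip1, Nfkbia, Hif3a and Klf4. In that fit, chosen after the data were seen, the log2 difference was -2.18 for Tsc22d3 (adjusted p = 0.00106), -2.28 for Per1 (adjusted p = 0.000893), -4.95 for Ddit4 (adjusted p = 0.000893) and -2.7 for Fkbp5 (adjusted p = 0.011), and the adjusted p of Gadd45g was 0.0704. Pik3ip1 and Hif3a fell in every fit with 1 of the 12 libraries left out. The call of Fkbp5 was lost without SPF2, GF528, GF529, GF530, GFA523, GFA524 or GFA525 (adjusted p 0.0571 to 0.124), that of Zbtb16 without GF528, GFA523 or GFA524 (adjusted p 0.0502 to 0.0555) and those of Klf4 and Gadd45g without GF528, GF529, GFA523, GFA524 or GFA525 (adjusted p 0.0508 to 0.12). With no filter on low counts Fkbp5 (adjusted p = 0.0632) and Zbtb16 (0.07) were not called either, and 3 members fell. Per1 passed with DESeq2 (adjusted p = 0.0118), with limma voom (0.000609) and without SPF3 or GFA518 (0.000454 to 0.0372). Ddit4 passed with limma voom (adjusted p = 0.023) and without GFA518 (0.00161). In the remaining alternatives, apart from the fit without GF529 and GFA518, neither gene passed. The number of falls in the list ranged from 2 without GF528, GFA523 or GFA524 and 3 without GF529 or GFA525 to 9 without GFA518.

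**Figure D1:**
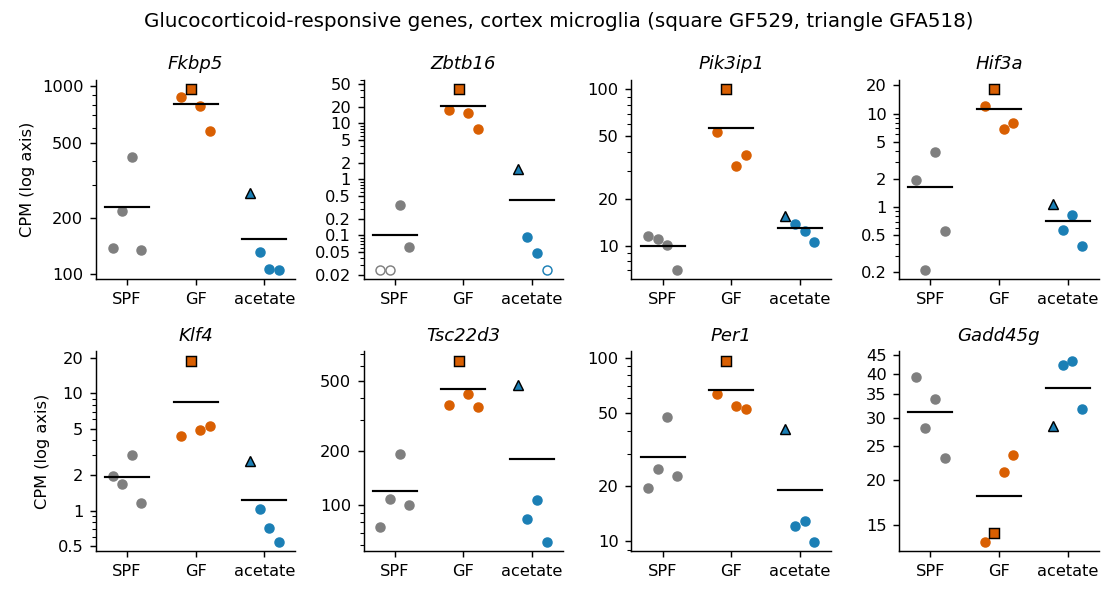
Levels of 8 glucocorticoid-responsive genes in CPM on log axes, 1 point per cortex library in SPF, GF and acetate groups (n = 4 each), with the group mean as a bar, GF529 as a square, GFA518 as a triangle and open circles at the bottom for libraries at 0. In Fkbp5, Zbtb16, Pik3ip1, Hif3a and Klf4 every acetate point lies below every GF point, while in Tsc22d3 the triangle lies among the GF points.

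The glucocorticoid response element, searched on both strands as GNACANNNTGTNC, was found in the promoters of 3 of 29 listed genes with a RefSeq promoter (10.3%), of 0.373% of tested genes and of 0.537% of all 27025 promoters. A promoter here is the window from 250 bases before to 50 after the start, on build GRCm38.p6. The 3 matches, picked for display after their values were seen, show how the element reads in mouse promoters. Capitals mark the fixed letters, and each site is written 5′ to 3′ on the strand of transcription, which is the + strand for all 3 genes. Positions count from the start.
Sgk1, bases -188 to -176 of the window chr10:21993640-21993939: GaACAgaaTGTtC
Mt1, bases -94 to -82 of the window chr8:94178839-94179138: GgACAtgaTGTtC
Map3k6, bases -181 to -169 of the window chr4:133240568-133240867: GcACAggcTGTtC
None of these 3 genes was called. The log2 difference was 0.19, adjusted p = 0.616 for Sgk1, -0.78, adjusted p = 0.224 for the metallothionein gene Mt1 and -3.33, adjusted p = 0.136 for the stress kinase gene Map3k6. The element was in 0 of 61 promoters of fallen genes and 0 of 51 of risen genes, which says only that these letters are not in these windows.

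Beyond the glucocorticoid list, the falls included genes of cytokine and nucleic acid sensing. Lifr, the receptor chain for leukemia inhibitory factor, measured 315, 355, 241 and 322 CPM without acetate and 194, 119, 121 and 123 CPM with it (-1.15 ± 0.15 (SE), adjusted p = 0.00152, 2.21-fold lower). The groups were well apart, with GFA518 the highest treated library. Tlr7, the endosomal receptor for single-stranded RNA, measured 573, 627, 554 and 566 CPM without acetate and 461, 356, 381 and 318 CPM with it (-0.61 ± 0.11 (SE), adjusted p = 0.0118). Ccl3, a chemokine that draws monocytes and T cells, measured 81.2, 113, 71.9 and 130.5 CPM without acetate and 40.6, 60.3, 37.6 and 55.8 CPM with it (-1.03 ± 0.23 (SE), adjusted p = 0.0378). Of 25 tested inhibitory and paired immune receptors, Cd300lf (-2.38, adjusted p = 0.0136) and Havcr2, which encodes the checkpoint receptor TIM-3 (-0.47, adjusted p = 0.0166), fell and none rose. In the list of cytokines, chemokines and NF-kB feedback genes 2 of 41 fell, Ccl3 and Tlr7, and 1 rose, the adhesion molecule Icam1 (0.54, adjusted p = 0.0136). Over all genes tested 0.523% fell and 0.45% rose. Gpr65, a proton-sensing receptor, fell by 1.92 on the log2 scale (adjusted p = 0.0166) although its groups overlapped at 9.93 to 51.97 CPM in GF and 6.32 to 10.03 CPM in acetate libraries. Lifr was called with any 1 library left out. Calls were lost in Tlr7 and Icam1 without GF528, GFA523, GFA524 or GFA525 (adjusted p 0.0502 to 0.0658), in Ccl3 without GF528, GF529, GF532, GFA518, GFA523, GFA524 or GFA525 (adjusted p 0.0616 to 0.148) and in Cd300lf, Havcr2 and Gpr65 without GF528, GF529, GFA523, GFA524 or GFA525 (adjusted p 0.0508 to 0.0832). Ccl3 (adjusted p = 0.213), Gpr65 (0.117) and Havcr2 (0.0704) were not called without GF529 and GFA518 together. With no filter on low counts Ccl3 (adjusted p = 0.233) and Gpr65 (0.103) were not called.

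Immediate-early genes fell in 3 of 24 tested cases (0.523% of all genes) and rose in none, with a list median of -0.07. Besides Klf4 these were Nr4a1 and Jdp2. Nr4a1, an orphan nuclear receptor induced within minutes by many stimuli, measured 9.33, 5.51, 11.5 and 4.77 CPM without acetate and 2.81, 1.83, 3.12 and 2.51 CPM with it (-1.59 ± 0.33 (SE), adjusted p = 0.0252). Jdp2, a repressor of AP-1, measured 41.5, 56.05, 36.1 and 41.6 CPM without acetate and 19.01, 7.87, 8.07 and 7.03 CPM with it (-2.06 ± 0.34 (SE), adjusted p = 0.00835). Both genes separated the groups, and GFA518 was again the treated library nearest to GF in Jdp2. Nr4a1 lost its call without GF528, GF530, GFA523, GFA524 or GFA525 (adjusted p 0.0717 to 0.104) and Jdp2 without GFA524 (adjusted p 0.0502), and the list held 0 calls without GFA524, with Klf4 as given above. Without GF529 and GFA518 the 2 falls were Klf4 and Jdp2, with Nr4a1 at an adjusted p of 0.0514. With no filter on low counts there were also 2, with Jdp2 at an adjusted p of 0.0805.

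Some of the firmest falls belong to no list. Ppp1r21, which encodes an endosomal protein, measured 296, 300.3, 244 and 233 CPM without acetate and 147, 123, 119 and 109.9 CPM with it (-1.1 ± 0.15 (SE), adjusted p = 0.00172). Ston1, a stonin linked to endocytosis, measured 10.2, 12.2, 4.59 and 9.09 CPM without acetate and 1.12, 1.26, 1.44 and 1.58 CPM with it (-2.74 ± 0.34 (SE), adjusted p = 0.00127, 6.67-fold lower). Anapc16, a subunit of the anaphase-promoting complex (-1.11, adjusted p = 0.00127), Pts, an enzyme of tetrahydrobiopterin synthesis (-0.85, adjusted p = 0.00127), and Tmod1, which caps actin filaments (-1.83, adjusted p = 0.00679), also fell. All 5 were called with any 1 of the 12 libraries left out, and the groups did not overlap in any of them. Plet1os fell from 7.2 to 20.1 CPM to 0.240 to 2.28 CPM (-4.03, adjusted p = 0.0166), but it runs antisense to Plet1 and no strand setting is given for the counting, so reads of the 2 genes cannot be told apart. Its call was lost without GF528, GF529, GFA523, GFA524 or GFA525 (adjusted p 0.057 to 0.0732) and with no filter on low counts (adjusted p = 0.14). Fn3k, a kinase that repairs glycated proteins, fell by 1.91 (adjusted p = 0.0415) and lost its call without SPF2, GF528, GF529, GF532, GFA518, GFA523, GFA524 or GFA525 (adjusted p 0.056 to 0.195), and also without GF529 and GFA518 together (0.122).

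Homeostatic microglia genes rose in 5 of 29 tested cases and fell in none. The 5 were Olfml3, Fcrls, Sparc, Slc2a5 and Upk1b. The list's median was 0.32, 24 members had a positive log2 difference, and in 15 the acetate libraries lay above all GF libraries (4.84% of all genes). Olfml3, a secreted olfactomedin that marks microglia in the brain, measured 1655, 1392, 1524 and 1569.7 CPM without acetate and 2260.4, 2292, 2837 and 2770.5 CPM with it (0.73 ± 0.10 (SE), adjusted p = 0.00172, 1.65-fold higher). GF529 was the lowest GF library and GFA518 the lowest treated one. Fcrls, an Fc receptor-like scavenger gene of mouse microglia, measured 1702, 1275, 1995 and 1552 CPM without acetate and 2607, 2410.2, 2444 and 2500.1 CPM with it (0.61 ± 0.12 (SE), adjusted p = 0.0176). Its groups were far apart and the 4 treated libraries lay close together. Sparc, a secreted matrix glycoprotein, measured 2545, 2418, 2824 and 2179.7 CPM without acetate and 3248, 3421, 4068 and 4057 CPM with it (0.57 ± 0.10 (SE), adjusted p = 0.0136). Slc2a5, a hexose carrier best known for fructose, measured 736, 662, 828 and 699 CPM without acetate and 1119.7, 1040.3, 1168 and 1187 CPM with it (0.63 ± 0.11 (SE), adjusted p = 0.00902). Upk1b, a tetraspanin, measured 96.3, 74.3, 143 and 129 CPM without acetate and 155, 199.6, 209.9 and 202 CPM with it (0.79 ± 0.16 (SE), adjusted p = 0.0227), with the lowest treated library, GFA518, just above the highest GF library, GF530.

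P2ry12, Tmem119 and Cx3cr1, well-known markers of the list, did not pass in this fit. P2ry12, the purinergic receptor that guides process extension, measured 5295, 4456, 6239 and 5625 CPM without acetate and 6717, 6679.6, 7589.6 and 8223 CPM with it (0.43 ± 0.12 (SE), adjusted p = 0.0848). It passed with DESeq2 (adjusted p = 0.0205), with no filter on low counts (0.0167), with limma voom (0.0141), in a fit of only the GF and acetate libraries (0.0302) and without SPF1 (0.0493). All its treated libraries lay above all GF libraries. Tmem119, a microglial surface protein, also did so at 3424 to 3776 CPM in GF and 4205 to 5329 CPM in acetate libraries (0.32 ± 0.12 (SE), adjusted p = 0.242), as did the fractalkine receptor Cx3cr1 at 6277 to 7477 and 8214 to 9329.9 CPM (0.32 ± 0.10 (SE), adjusted p = 0.173). Cx3cr1 passed with limma voom (adjusted p = 0.035), in a fit of only the GF and acetate libraries (0.0357) and without SPF1 (0.0399). The summed microglia markers given above, 3 of which are these genes, moved the same way without overlap, and so did the 10 oligodendrocyte markers at 150 to 174 CPM in GF and 181 to 202 CPM in acetate libraries, none of them called. The summed astrocyte markers moved down from 353 to 467 CPM to 232 to 325 CPM, nearly all of it Slc1a3, which was called (-0.58, adjusted p = 0.0278). Their part in the result was not tested. Olfml3 was called with any 1 library left out. Fcrls lost its call without GF528, GF529, GF532, GFA523, GFA524 or GFA525 (adjusted p 0.0573 to 0.0732), Sparc without GF528, GF529, GF532, GFA524 or GFA525 (adjusted p 0.0521 to 0.0737), Slc2a5 without GF528 (adjusted p 0.0508) and Upk1b without GF528, GF529, GFA523, GFA524 or GFA525 (adjusted p 0.0612 to 0.108). Calls in the list ranged from 1 without GF528, 2 without GF529, GFA524 or GFA525 and 3 without GF532 or GFA523 to 9 without GF530 and 12 without SPF1. Without GF529 and GFA518 there were 4, with Fcrls at an adjusted p of 0.0939. The other alternatives gave 5 (RLE scaling) to 15 (limma voom), with 11 by DESeq2.

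Both called members of the TGF-beta and ALK1 list encode parts of one receptor. Acvrl1 (ALK1) is a type I receptor for BMP9 and BMP10, and Eng (endoglin) is its co-receptor. Of 28 tested genes these 2 rose, none fell, and the median was 0.11. Acvrl1 measured 23.5, 22.1, 24.3 and 17.7 CPM without acetate and 45.7, 41.9, 49.9 and 53.4 CPM with it, so that its lowest treated library lay far above its highest GF library (1.12 ± 0.14 (SE), adjusted p = 0.00127, 2.18-fold higher). Eng measured 92.2, 87.1, 80.5 and 84.1 CPM without acetate and 109, 125, 142 and 142 CPM with it (0.59 ± 0.11 (SE), adjusted p = 0.0166, 1.5-fold higher). Both genes are also endothelial, and endothelial and mural markers summed to 29.1 to 61.4 CPM in GF and 35.5 to 58.6 CPM in acetate libraries, which overlap, with Slco1a4, Rgs5 and Kcnj8 at 0. The upper ends hold 18.9 CPM of Acta2 in GF530 and 10.2 CPM in GFA525. The 5 tested markers had a median log2 difference of 0.45, 3 of them positive and 2 negative, with none called. Pecam1 measured 16 to 28.6 CPM in GF and 25 to 40.1 CPM in acetate libraries. Kdr measured 11.9 to 15.4 and 8.34 to 11.6 CPM. An endothelial part in the 2 rises was not tested. Acvrl1 was called with any 1 library left out, and Eng lost its call without GF528, GF529, GF532, GFA523, GFA524 or GFA525 (adjusted p 0.0508 to 0.0879). Both rose without GF529 and GFA518.

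**Figure D2:**
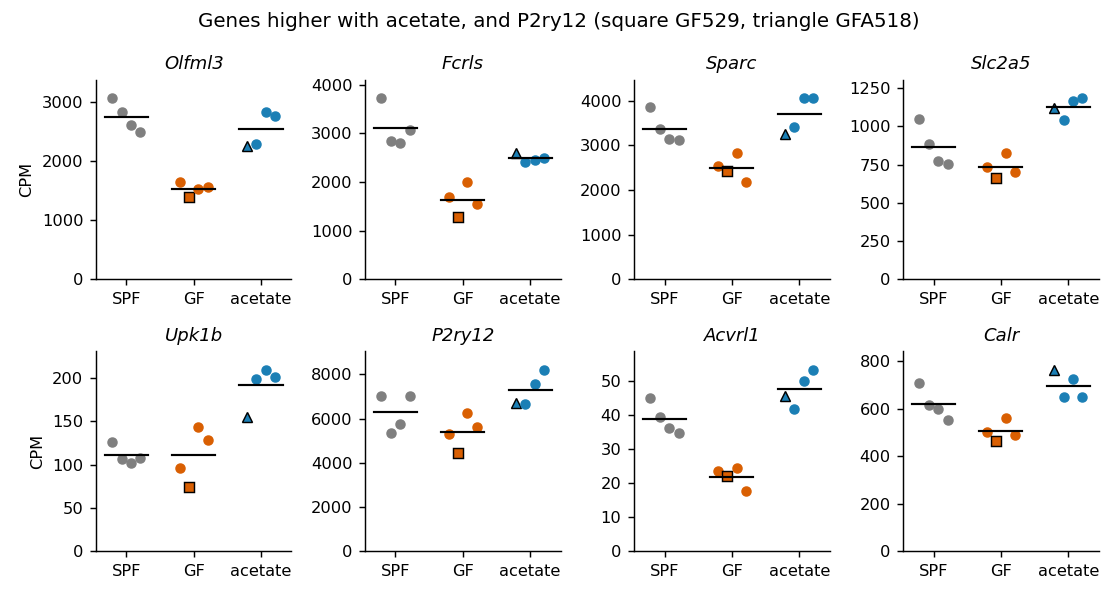
Levels in CPM on linear axes from 0 of 7 genes that rose with acetate and of P2ry12, which did not pass, 1 point per cortex library in SPF, GF and acetate groups (n = 4 each), with the group mean as a bar, GF529 as a square and GFA518 as a triangle. The acetate points lie above the GF points in all 8 panels.

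Among the other rises, Serpine2, a protease inhibitor counted among disease-associated microglia genes, measured 888, 1098, 1033 and 845 CPM without acetate and 1439.9, 1406, 1445 and 1682 CPM with it (0.63 ± 0.11 (SE), adjusted p = 0.00902). Myo1e, an unconventional myosin of the cell cortex (1.05, adjusted p = 0.0026), Ak1, adenylate kinase (0.78, adjusted p = 0.00172), and Gna15, a G protein subunit (0.56, adjusted p = 0.00679), rose and were called with any 1 library left out. Cnn2 (calponin), Ncs1 (a neuronal calcium sensor) and Fam89a rose by 0.88, 0.83 and 1.14 on the log2 scale. Map3k19, a kinase gene, had the largest rise among genes of at least 5 CPM at 2.43, 1.2, 1.68 and 1.59 CPM without acetate and 6.16, 6.7, 6.92 and 12.5 CPM with it (2.22 ± 0.49 (SE), adjusted p = 0.0365), with GFA525 high among the treated libraries. Itgam, which encodes CD11b, the antigen used for sorting, measured 191, 152, 240.2 and 245 CPM without acetate and 297, 299.8, 328 and 393.6 CPM with it (0.67 ± 0.14 (SE), adjusted p = 0.0325). It was the 1 called member of 25 tested Fc receptor, complement and integrin genes, 10 of which lay above all GF libraries (4.84% of all genes). Serpine2 lost its call without GF528 (adjusted p 0.0508), Itgam without GF528, GF529, GFA523, GFA524 or GFA525 (adjusted p 0.0663 to 0.14), Cnn2 without GF528, GF529, GF532, GFA523, GFA524 or GFA525 (adjusted p 0.0558 to 0.0915), Ncs1 without GF528, GF529 or GFA523 (adjusted p 0.0508 to 0.0598), and Map3k19 and Fam89a without GF528, GF529, GF530, GF532, GFA523, GFA524 or GFA525 (adjusted p 0.0571 to 0.148). Map3k19 (adjusted p = 0.122), Ncs1 (0.0704) and Itgam (0.0826) were not called without GF529 and GFA518 together. Tubulins and cytoplasmic actins, a group picked after its values were seen, rose in 6 of 13 tested cases (Tubb2a, Tubb2b, Tuba1b, Tubb5, Actb and Actg1), with Tubb5 at 116, 109.9, 126 and 112 CPM without acetate and 169.8, 169, 185 and 172 CPM with it (0.58 ± 0.09 (SE), adjusted p = 0.00679). Of the 12 fits with 1 library left out, Tubb5 was called in 12, Tubb2a and Tubb2b in 7, Tuba1b and Actg1 in 5 and Actb in 3, and without GF529 and GFA518 together Tubb5 and Tubb2a were called and the other 4 were not (adjusted p 0.0561 to 0.149). These genes are close paralogs among which reads can be shared.

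Chaperones of the endoplasmic reticulum rose in 2 of 30 tested cases (0.45% of all genes) and fell in none, with a list median of 0.20. In 11 members the acetate libraries lay above all GF libraries (4.84% of all genes). Calr encodes calreticulin, the lectin chaperone and calcium store of that compartment, and measured 504, 462, 561 and 489.9 CPM without acetate and 765, 648, 726 and 651 CPM with it (0.47 ± 0.09 (SE), adjusted p = 0.0228). Sdf2l1, a partner of the chaperone BiP, measured 84.5, 66.4, 89.5 and 67.4 CPM without acetate and 115, 115, 119 and 112 CPM with it (0.59 ± 0.12 (SE), adjusted p = 0.0213). GFA518 was the highest library in Calr and the groups did not overlap in either gene. Among cytosolic heat shock genes 1 of 21 rose, the cochaperone St13 (0.46, adjusted p = 0.0171). Calr lost its call without GF528, GF529, GF532, GFA518, GFA523, GFA524 or GFA525 (adjusted p 0.0535 to 0.0988), and so did Sdf2l1 and St13 without GF528, GF529, GF532, GFA523, GFA524 or GFA525 (adjusted p 0.0555 to 0.0915). Without GF529 and GFA518 none of the 30 was called by edgeR's quasi-likelihood test, with Calr at a log2 difference of 0.38 (adjusted p = 0.146) and Sdf2l1 at 0.52 (adjusted p = 0.11), and St13 was not called either (adjusted p = 0.11).

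The endoplasmic reticulum stress element, searched on both strands as CCAAT, 9 bases of any kind and CCACG, was in 10 of 25 promoters of this list (40.0%), against 0.187% of tested genes and 0.137% of all promoters. It was in 1 of 51 promoters of risen genes (1.96%), that of Calr, and in 0 of 61 of fallen genes. The window of Calr is shown whole because Calr rose with acetate and holds the element. The window is chr8:84846882-84847181 of build GRCm38.p6, read 5′ to 3′ along transcription, which is on the - strand. Capitals mark the element, which lies here on the opposite strand and so reads in reverse complement.
Calr promoter: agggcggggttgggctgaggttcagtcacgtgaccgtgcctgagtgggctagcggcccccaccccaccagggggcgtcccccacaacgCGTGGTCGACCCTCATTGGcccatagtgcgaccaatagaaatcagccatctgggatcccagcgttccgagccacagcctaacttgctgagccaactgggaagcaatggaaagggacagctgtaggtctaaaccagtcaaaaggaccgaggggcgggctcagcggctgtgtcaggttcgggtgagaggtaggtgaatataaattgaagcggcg
The same element in 5 listed genes, picked after their values were seen, lets the fixed ends and the variable middle be compared. Each is written from CCAAT to CCACG, with the fixed letters in capitals and positions counted from the start along transcription. It runs along transcription in Canx, Hspa5, Pdia6 and the farther site of Hsp90b1, and against it in Calr and the nearer site of Hsp90b1.
Calr, bases -162 to -144 of the window chr8:84846882-84847181: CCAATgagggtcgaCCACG
Canx, bases -145 to -127 of the window chr11:50325624-50325923: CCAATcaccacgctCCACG
Hsp90b1 (site farther from the start), bases -212 to -194 of the window chr10:86705395-86705694: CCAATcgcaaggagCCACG
Hsp90b1 (site nearer the start), bases -107 to -89 of the window chr10:86705395-86705694: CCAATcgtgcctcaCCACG
Hspa5, bases -65 to -47 of the window chr2:34771840-34772139: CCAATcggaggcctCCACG
Pdia6, bases -98 to -80 of the window chr12:17266339-17266638: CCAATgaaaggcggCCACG
Of these 5 genes only Calr was called. The log2 difference was 0.45, adjusted p = 0.0633 for the disulfide isomerase Pdia6, 0.35, adjusted p = 0.0856 for calnexin (Canx), 0.27, adjusted p = 0.188 for GRP94 (Hsp90b1) and 0.30, adjusted p = 0.341 for BiP (Hspa5). The window of Sdf2l1 is not among the matches. For 5 further motifs the shares in risen, fallen and tested genes were 13.7%, 13.1% and 11.7% for the E-box CACGTG and 23.5%, 37.7% and 35.3% for the cyclic AMP element TGACG. They were 0%, 3.28% and 3.1% for the forkhead motif GTAAACA, 5.88%, 6.56% and 5.96% for the AP-1 motif TGANTCA and 23.5%, 23% and 16.1% for the PU.1 motif GAGGAAG.

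In glycolysis and glucose entry 2 of 26 rose and 1 fell, beside 0.45% and 0.523% of all genes tested. The risers were Slc2a5, described above, and the hexokinase gene Hk3 (0.74, adjusted p = 0.0278). The faller was the glucose carrier gene Slc2a3, at 33.6, 44.2, 25.01 and 31.8 CPM without acetate and 17.98, 10.4, 10.4 and 8.45 CPM with it (-1.51 ± 0.26 (SE), adjusted p = 0.0118). Hk3 lost its call without GF528, GF529, GF532, GFA523, GFA524 or GFA525 (adjusted p 0.0655 to 0.119) and Slc2a3 without GF528, GF529, GFA523, GFA524 or GFA525 (adjusted p 0.0508 to 0.0649). In the PI3K, AKT, mTOR and FoxO list 2 of 34 fell, Pik3ip1 and the regulatory subunit Pik3r1 (-0.40, adjusted p = 0.0446). Pik3r1 lost its call without SPF2, SPF3, GF528, GF529, GF530, GF532, GFA523, GFA524 or GFA525 (adjusted p 0.0611 to 0.156). Hk3 (adjusted p = 0.0917) and Pik3r1 (0.074) were not called without GF529 and GFA518 together.

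The genes of acetate uptake, sensing and acetyl-CoA, 17 tested, held no call, and neither did those of the TCA cycle (32), complex II (8), complex I (36), complexes III to V (35) or the mitochondrial genome (8). Of the first group 4 had an unadjusted p under 0.05, all with a positive difference, and DESeq2 called 1, Slc16a3 (adjusted p = 0.00418). Acss1, the mitochondrial acetyl-CoA synthetase, measured 131, 126, 150.1 and 150.0 CPM without acetate and 165, 169, 161 and 195 CPM with it, without overlap (0.31 ± 0.12 (SE), adjusted p = 0.272). Its cytosolic relative Acss2 had a difference of -0.07 ± 0.32 (SE), adjusted p = 0.973. The monocarboxylate carriers Slc16a1 and Slc16a3 had -0.32 ± 0.17 (SE), adjusted p = 0.506, and 0.54 ± 0.14 (SE), adjusted p = 0.0698. In the other 5 of these lists 1 complex I gene had an unadjusted p under 0.05 and DESeq2 called 0. Sdha, a subunit of succinate dehydrogenase (complex II), overlapped between the groups at 265 to 295 and 259 to 309.6 CPM (0.02 ± 0.09 (SE), adjusted p = 0.974). In these 6 lists the medians were 0.06, 0.01, -0.04, -0.12, -0.09 and -0.22 in the order given, and ribosomal protein genes, a group added after the values were seen, had a median of -0.20 over 82.

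In all, 13 of the 26 lists held no call by edgeR's quasi-likelihood test. Of their 308 tested genes 27 had an unadjusted p under 0.05, against 11.3% of all genes tested, and DESeq2 made 6 calls in these lists, with none in 8 of the 13. Histone acetylation genes had a median of 0.00 over 33 genes, and DESeq2 called 1. MHC class I presentation had a median of 0.11 over 18 genes, MHC class II of 0.25 over 11 and the type I interferon response of 0.17 over 34. Cathepsins and lysosome genes had a median of 0.08 over 38 genes, with 7 above all GF libraries (4.84% of all genes). Among disease-associated microglia genes Serpine2 rose and Ccl3 fell out of 29. Apoe, which is part of that signature, overlapped at 883, 910.4, 743 and 346 CPM in GF and 528.6, 475, 371 and 566 CPM in acetate libraries (-0.57 ± 0.22 (SE), adjusted p = 0.296; called without GF532, adjusted p = 0.0235), and its receptor Trem2 had 0.13 ± 0.10 (SE), adjusted p = 0.696. In the cell cycle list 1 of 27 fell (0.523% of all genes), the cyclin D3 gene Ccnd3 (-1.04, adjusted p = 0.0139). Its call was lost without GF528, GF529, GFA523, GFA524 or GFA525 (adjusted p 0.0508 to 0.0767). It was also lost with no filter on low counts (adjusted p = 0.0892), when the list held no call. Without GF529 and GFA518 together Aurka was called higher and Mcm6 lower beside Ccnd3.

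**Figure D3:**
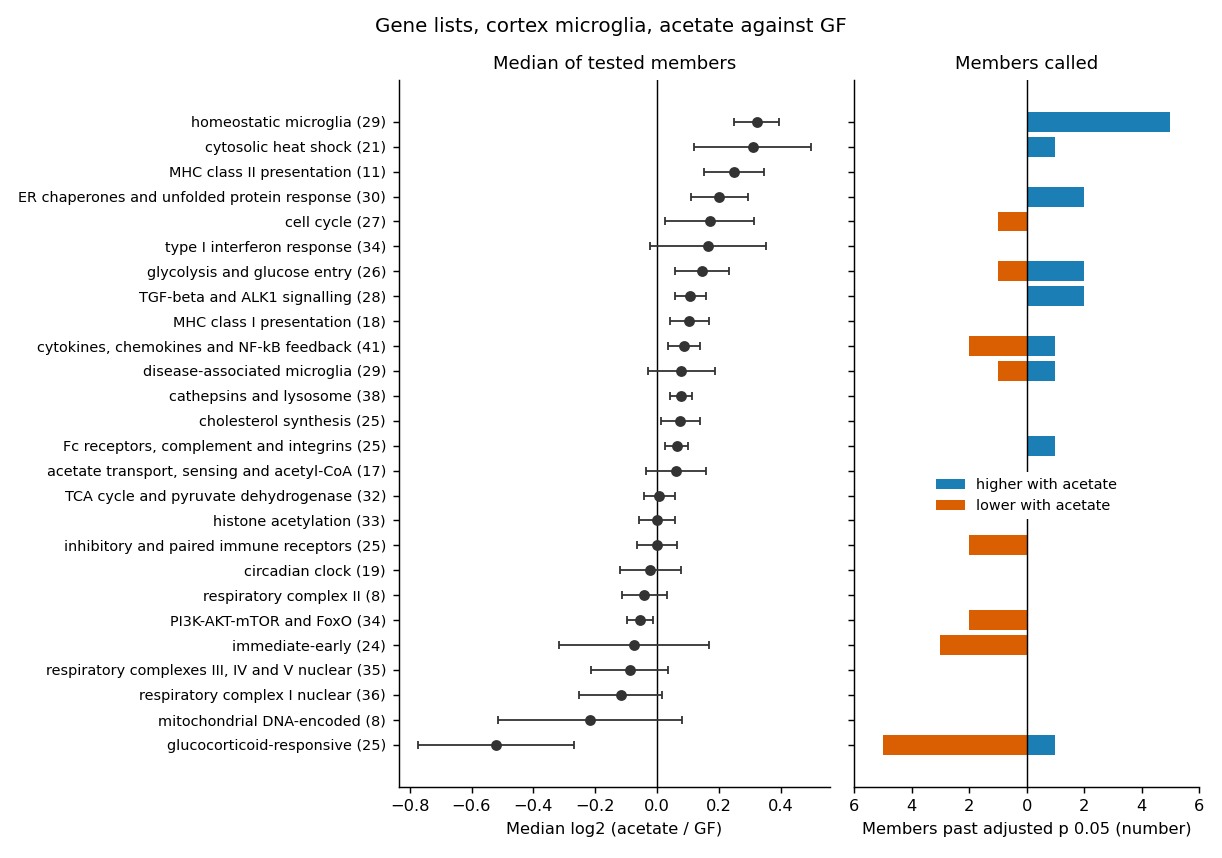
Left, median log2 difference of acetate minus GF over the tested members of each of 26 gene lists (number tested in brackets), where the bars span 1 SD either way of the library's median deviation from its group mean, pooled over 8 libraries. Right, number of members past an adjusted p of 0.05 in each direction: homeostatic microglia have 5 higher and glucocorticoid-responsive genes 5 lower and 1 higher.

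The levels in mice with a microbiota are set beside these values without a test of likeness, since both comparisons share libraries with the first. Over the 68 risen genes the median log2 difference was -0.49 for GF minus SPF and 0.12 for acetate minus SPF. Over the 79 fallen genes it was 0.68 and -0.18. Between acetate and SPF 3 of the risen genes were called (Serpine2, Nsmf and Upk1b) and 4 of the fallen ones (Mlph, D2hgdh, Dbi and Fam83c), where 0.225% of all genes were higher with acetate than in SPF and 0.139% lower. These shares are the background only, since the members were chosen with the same acetate libraries. Fkbp5 measured 138, 217, 419 and 135 CPM in SPF1 to SPF4, all below the 4 GF libraries and overlapping with the acetate ones. Zbtb16 measured 0, 0, 0.345 and 0.0613 CPM and Olfml3 3071, 2826, 2605 and 2494 CPM in the same libraries. Upk1b measured 127, 107, 102 and 107 CPM, which is within the GF range, and its acetate minus SPF difference was 0.79 (adjusted p = 0.0347). For Serpine2 that difference was 0.72 (adjusted p = 0.00325) and the GF minus SPF difference 0.09 (adjusted p = 0.806). The border macrophage marker Mrc1 had -1.61 (adjusted p = 0.00109) for GF minus SPF and 0.04 ± 0.22 (SE), adjusted p = 0.974 for acetate minus GF.

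The same treatment was given to 5xFAD mice, other animals from which hippocampus was sequenced. In both genotypes the animal numbers of all acetate mice come before those of all untreated germ-free mice. Anything else that follows this order cannot be told apart from acetate in either tissue. 5xFAD mice carry human transgenes with familial Alzheimer mutations under the neuronal Thy1 promoter. They were germ-free, aged 16 weeks, with acetate (n = 4) or without (n = 3), and the hippocampus test called 3 of 17063 genes higher (0.0176%) and 11 lower (0.0645%). Of the 68 genes risen in cortex 1 was called higher there, Olfml3, and 65 (95.6%) had a positive difference, against 51.4% of all genes. Of the 79 genes fallen in cortex 7 were called lower and 72 (91.1%) had a negative difference, against 48.5%. The medians were 0.40 and -0.70, against 0.01 over all genes. Olfml3 measured 2946, 2642, 2271 and 2595 CPM with acetate in 5xFAD hippocampus and 1743, 1592 and 1645 CPM without, again with no overlap (0.65 ± 0.11 (SE), adjusted p = 0.0089). Ppp1r21 measured 86.6, 126, 137 and 99.6 CPM with and 233, 270.4 and 319 CPM without (-1.29 ± 0.16 (SE), adjusted p = 0.000533), and Lifr 134, 184, 223 and 127 CPM with and 338, 370.4 and 399 CPM without (-1.14 ± 0.21 (SE), adjusted p = 0.036). In all 3 genes the treated and untreated animals were separate. The other 5 called lower were Chka, Klf13, Pik3r1, Rbm26 and Rnf169.

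Fkbp5 measured 185, 307, 333 and 111 CPM with acetate and 788, 955 and 1057 CPM without in the 5xFAD hippocampus, and Zbtb16 6.09, 19.9, 14.6 and 4.97 CPM with and 98.4, 157 and 198 CPM without. The groups were apart in both genes, yet neither passed there, with -2.0 (adjusted p = 0.19) for Fkbp5 and -3.73 (adjusted p = 0.135) for Zbtb16. Tsc22d3 had 61.6, 113, 129 and 36.7 CPM with acetate and 341, 381 and 492 CPM without, also with no overlap, and a difference of -2.25 (adjusted p = 0.103). Nr4a1 had 0.06 (adjusted p = 1) and Ccl3 0.35 (adjusted p = 0.893). For Acvrl1 the difference was 0.69 (adjusted p = 0.446), for Fcrls 0.58 (adjusted p = 0.429) and for Calr 0.35 (adjusted p = 0.339). With DESeq2 in both tissues 34 of 264 risen and 44 of 216 fallen genes were called in the same direction in 5xFAD hippocampus, where it called 0.807% of the 8054 genes given an adjusted p higher and 1.09% lower. With only the groups compared these were 19 of 192 and 41 of 124, where 0.256% of all genes were called higher and 0.539% lower.

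**Figure D4:**
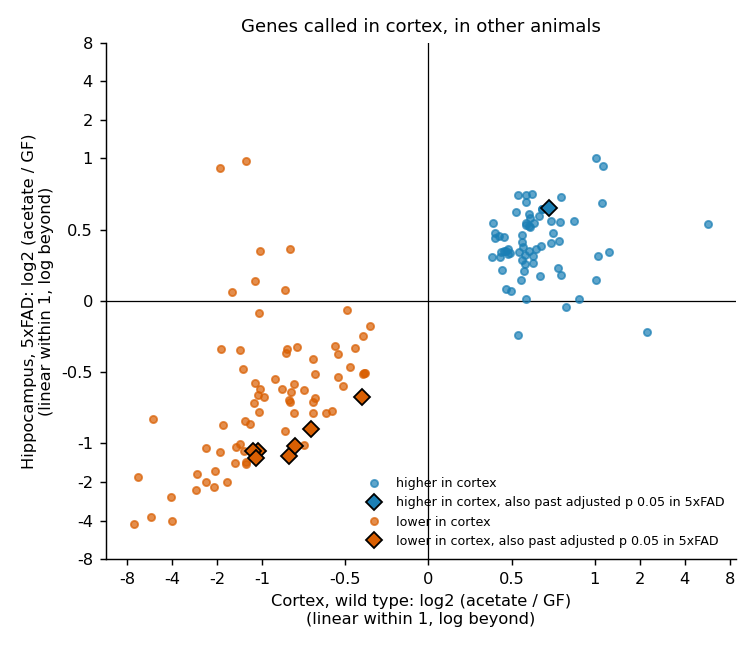
Log2 difference of acetate minus GF for the 147 genes called in wild-type cortex, x axis, against the same difference in 5xFAD hippocampus of other animals, y axis, both linear within 1 and logarithmic beyond. Diamonds are the 1 risen and 7 fallen genes also called in 5xFAD hippocampus, and 65 of 68 risen and 72 of 79 fallen points lie on the side of 0 they had in cortex.

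Wild-type hippocampus came from the same animals apart from GF528 and adds no new animals. There, with 39 genes called higher (0.229%) and 45 lower (0.264%), 6 of the 68 and 18 of the 79 were called in the same direction. These calls did not stand when only the 2 groups compared were fitted, which left 0 and 0, with no gene of 14845 called in that fit (0%). Olfml3 had a difference of 0.66 (adjusted p = 0.00586), Sparc 0.53 (adjusted p = 0.0291), Upk1b 1.02 (adjusted p = 0.0457), Pik3ip1 -2.93 (adjusted p = 0.00586) and Lifr -1.15 (adjusted p = 0.0144). In this tissue too GFA518 was the highest treated library in Fkbp5 (334 CPM against 72.5 to 109) and Zbtb16 (7.56 against 0 to 1.17). The same held in Tsc22d3 (314 against 81 to 98.9), Per1 (40.3 against 9.99 to 16.9) and Ddit4 (28.2 against 0.808 to 1.85). Icam1, lowest in GFA518 among the treated cortex libraries, was highest in it here. GF529 was the highest GF library in Ddit4, Zbtb16 and Klf4. What sets these animals apart was not tested. The difference between regions in the acetate response was tested within the 7 animals that have both, with the animal as a block. edgeR's quasi-likelihood test called 0 of 15911 genes (0%), with 595 at an unadjusted p under 0.05 and a smallest adjusted p of 0.528, while DESeq2 with the block called 2, Cbx2 and Lpin1.

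Whole-brain microglia of other mice, aged 6 to 12 weeks, were compared between GF (n = 5) and SPF (n = 3), with 116 of 11332 genes called higher in GF (1.02%) and 110 lower (0.971%). Of the 68 genes risen in cortex with acetate 64 were tested there, and 5 were lower in GF (Il6st, Kcnk13, Nrp1, Pdgfb and Upk1b) and 2 higher (Calr and Sdf2l1). The cytokine receptor chain Il6st had -0.74 (adjusted p = 3.87e-05) and Upk1b -0.50 (adjusted p = 0.0291). Calr had 0.30 (adjusted p = 0.00783) and Sdf2l1 0.36 (adjusted p = 0.0423), so that both chaperones were higher in GF than SPF whole brain but rose with acetate in GF cortex. Of the 79 fallen genes 69 were tested, 14 were called higher in GF and 0 lower by edgeR's quasi-likelihood test, with 25 at an unadjusted p under 0.05, and 18 had a negative difference. DESeq2 called 6 of its own 216 fallen genes lower, not all of which need have been tested there, beside 2.47% of all 12122 genes. Fkbp5 had 1.0 (adjusted p = 0.0119), Nr4a1 2.03 (adjusted p = 0.031), Jdp2 1.89 (adjusted p = 0.0126), Ccl3 1.35 (adjusted p = 0.0122) and Gpr65 1.1 (adjusted p = 0.0189). In these mice 50 of 64 risen genes (78.1%) had a negative GF minus SPF difference, against 49.6% of all genes, and 51 of 69 fallen genes (73.9%) had a positive one, against 50.4%. The whole-brain mice were younger and counted in another table, and no acetate group is among them. Their titles carry an F mark that no cortex or hippocampus title carries, and a difference in sex was not tested.

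The number of calls moved with every library left out of the cortex fit. Without GF528 it was 6 higher and 17 lower, and without GFA523, GFA524 or GFA525 it was 13 to 16 higher and 16 to 19 lower. Without GF529 it was 17 and 27, and without GF532 29 and 48. It was highest without SPF1, at 162 and 115. The genes called in all 12 of these fits were 6 of the 68 (Acvrl1, Myo1e, Ak1, Olfml3, Tubb5 and Gna15) and 15 of the 79, Hif3a, Ston1, Pik3ip1, Tmod1, Anapc16, Pts, Lifr and Ppp1r21 among them. GFA518 was the highest treated library in 48 of the 79 fallen genes and the lowest in 33 of the 68 risen ones, against 4267 and 4558 of all 15113. GF529 was the highest GF library in 55 of the fallen and the lowest in 35 of the risen genes, against 4283 and 4198 of 15113. With GF529 and GFA518 both left out 27 of the 68 and 42 of the 79 remained called. Among the named genes that did not, those without a value above are Nrp1, Il6st, Kcnk13, Pdgfb, Nsmf, Dbi and Rnf169, at adjusted p of 0.055 to 0.141. All 147 genes kept the sign of their difference in all 12 fits and without GF529 and GFA518 together. Groups that do not overlap in nearly all of these genes left little room for a change of sign, so this shows little.

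**Figure D5:**
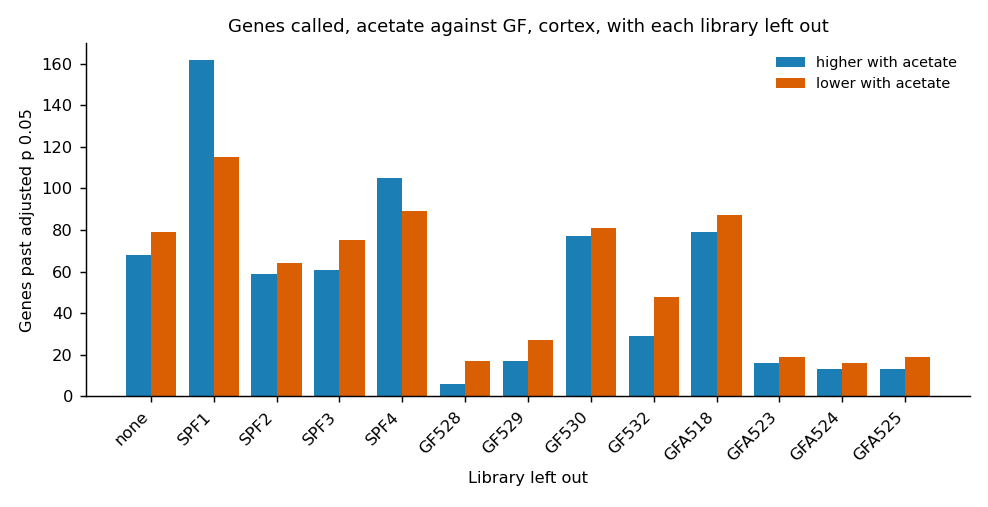
Number of genes called higher or lower with acetate in cortex, y axis, when no library or the named 1 of 12 libraries, x axis, is left out of the fit. The bars fall to 6 and 17 without GF528 and reach 162 and 115 without SPF1, against 68 and 79 with all libraries.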

How the data were processed

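RNA of sorted microglia was measured by sequencing in 42 libraries, 12 of them wild-type cortex. The deposited files hold raw read counts per gene, made by the authors with STAR 2.5.2b and featureCounts 1.5.1, per the submitters' processing notes, which name genome build GRCh38. The build is the human one, and the rows carry mouse symbols, so coordinates from the files were not used. Promoters are RefSeq windows on GRCm38.p6, matched by symbol for 10180 of 15113 tested genes (67.4%). Libraries were sequenced on a HiSeq 1000, per the labels. Every value column was assigned to a sample (0 columns without one).

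The main test was that of edgeR 4.0.16 in R 4.3.3: filterByExpr with a minimum count of 10, TMM scaling, and a robust quasi-likelihood test, two-sided, with the 3 cortex groups in 1 fit and the Benjamini-Hochberg adjustment taken across every tested gene. Of 53546 rows 15113 were tested. Log2 differences are fitted values, levels are CPM, and folds are taken from the fitted log2 differences. The SE is the absolute log2 difference divided by the square root of the quasi-likelihood F value. It is therefore approximate, above all in genes with very few counts. The 5xFAD and wild-type hippocampus values come from 1 fit of 22 libraries. Alternatives were DESeq2 1.42.0, limma 3.58.1 (voom with sample weights), RLE scaling, other filters, a fit of only the groups compared and each library left out, and leaving out GF529 and GFA518 together was added after the data were seen. Scripts were tested on simulated data.

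The compared libraries, the gene lists and the naming rule were chosen with earlier results of these data known. Named genes are, among called genes of at least 5 CPM in a group and not predicted models, the 12 with the largest fold and the 6 with the smallest p in each direction, called list members, up to 3 of each list without a call, and a set that includes Sdha, Acss1, Apoe, P2ry12 and Fkbp5. Some of these are left out of the text, and genes named as changed outside the rule, such as Nrp1, Slc1a3 and those of the other tissues, were chosen after their values were seen. The germ-free labels number animals apart, and nothing beyond the spread between these libraries enters the p-values. Chi-square per degree of freedom between replicate libraries was 11.96 to 26.96, so no pair is a repeat of 1 library. GF and acetate mice share no animal number and were not paired. Cortex and hippocampus of 1 animal share its number, and their residuals correlated at 0.0268 to 0.119 across genes.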

Additional observations from a re-analysis of the deposited data

Results flagged for a closer look

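In 105 genes the highest or lowest of the 4 libraries was compared with its group in CPM, and 19 of 210 groups (9.05%) held a library whose gap to its nearest neighbour was a larger share of the group's range than Dixon's 95% critical value for 4 samples. Chance alone gives about 1 in 20. The library was GFA518 in 11 of the 19. It was high among the acetate libraries in Fkbp5 (gap 0.839 of the range), Zbtb16 (0.940), Tsc22d3 (0.893), Per1 (0.905) and Ddit4 (0.960), all glucocorticoid-responsive genes. GFA518 was also high in Plet1os (0.888), Jdp2 (0.913), Anapc16 (0.889) and Lifr (0.954), and low in Icam1 (0.872) and in the complex I gene Ndufa6 (0.891), where it measured 30.2 CPM against 43.6 to 45.2 CPM. Of the 9 genes in which it was high, it lay below every GF library in all but Tsc22d3 and Ddit4. GF529 was high among the GF libraries in Klf4 (0.934), Tmod1 (0.851) and Ddit4 (0.874), where it measured 73.8 CPM against 14.5 to 21.99 CPM. GFA525 was high among the acetate libraries in Map3k19 (0.880), Serpine2 (0.860) and Oaf, a secreted protein gene that rose with acetate (0.873, 49.8 CPM against 34.1 to 36.1 CPM). GFA524 was high in Tubb5 (0.846), and GF530 was low in the complex I gene Ndufb11 (0.835, 34.9 CPM against 40.1 to 41.1 CPM).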

How the results depend on the processing

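Counts of genes higher and lower with acetate in cortex, 68 and 79 as reported, were 264 and 216 with DESeq2, 243 and 185 with limma voom, 192 and 124 in a fit of only the GF and acetate libraries, 129 and 87 with no filter, 113 and 114 with a minimum of 5 CPM, 65 and 78 with RLE scaling, and 35 and 56 without GF529 and GFA518. Higher genes made up 55% of calls with DESeq2, 59.7% with no filter, 60.8% with only the groups compared, 56.8% with voom and 45.5% with RLE. With each of 12 libraries left out in turn the counts were 6 to 162 higher and 16 to 115 lower. All genes called in the main analysis kept their sign in each of these, 141 of 147 being present with the 5 CPM minimum, and 6 risen and 14 fallen genes were called in all 18 alternatives other than that without GF529 and GFA518. The counts of genes whose groups do not overlap, 731 and 567, moved by less than 1.5 times with RLE. The region difference, 0 genes in the paired analysis with the animal as a block, was 0 with no replicate block, 0 with RLE, 0 with each of 7 animals left out, 1 with a minimum of 5 CPM (S100a8, which measured 9.42 CPM in GFA524 cortex) and 2 with DESeq2 (Cbx2 and Lpin1). No paired analysis was possible between acetate and GF because these groups share no animal number. No called gene changed its sign, which groups without overlap nearly fix in advance. Among single genes without a call 6, such as Acss2, Mrc1 and Sdhc, changed sign in at least 1 alternative. So did 6 list medians near 0, such as those of the TCA cycle, histone acetylation and immediate-early genes. Among values of single genes and lists 3059 counted as unchanged, 201 lost and 40 gained a call and 210 moved. Unchanged means the same call for a gene, a count within 1.5 times, or a list median within 1 SD of its spread between libraries. A change of sign in a gene without a call therefore counts as unchanged. The causes were not tested. With 4 libraries a group and 1 library able to end most calls, a gene that did not pass is not shown to be equal between groups.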
